A study of Mus musculus with 360 samples.

Results

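Heated C1498 cells, picked 15 h after the end of heating, were set beside heated cells picked 10 h after it. The 21 cells at 15 h and the 52 cells at 10 h were taken by their titles, which give the temperature and the hour, out of 360 cells in all. C1498 is a mouse acute myeloid leukemia line. These cells were held at 45 °C for 10 min, followed by time-lapse imaging, and collected singly with an automated picking system. Control cells were handled the same way at 37 °C, and 11 were picked at 15 h and 6 at 10 h. The other groups, used here to place the levels in time, were picked at -1, 1 and 5 h at either temperature, where the cells at -1 h of the 45 °C arm had not yet been heated. No label names a culture, so each group was treated as 1 sample, and what follows describes these cells with no p-value and no standard error. The 95% intervals of levels and ratios cover counting error only, and those of shares of cells take each cell as a draw. None covers differences between cultures.

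Heat that unfolds proteins releases the transcription factor HSF1, which switches on genes of chaperones, the proteins that refold or hold damaged ones. Cells under stress also use NRF2, which drives genes against oxidants, and ATF4, which drives amino acid supply and tRNA charging when translation is held back. Cholesterol synthesis is governed by SREBP factors, which are kept in the endoplasmic reticulum while sterol is plentiful and released when it runs short.

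The DNA upstream of Hmgcs1, which had the highest ratio of the cholesterol genes, and of Txnrd1, an NRF2 target that stood at least 2-fold lower, is shown because each stretch holds letters of the kind of site these factors read. Both are the 250 bases before a RefSeq transcription start in GRCm38.p6 (mm10), on the plus strand. The first, upstream of Hmgcs1 (chr13:119690101-119690350), has in capitals a sterol regulatory element (SRE, searched as TCACNCCAC on both strands), which begins at position -137. The second, upstream of one of the starts of Txnrd1 (chr10:82858956-82859205), has in capitals an antioxidant response element (ARE, searched as TGACNNNGC on both strands, whose first letters are also those of an AP-1 site), at position -92.
Hmgcs1: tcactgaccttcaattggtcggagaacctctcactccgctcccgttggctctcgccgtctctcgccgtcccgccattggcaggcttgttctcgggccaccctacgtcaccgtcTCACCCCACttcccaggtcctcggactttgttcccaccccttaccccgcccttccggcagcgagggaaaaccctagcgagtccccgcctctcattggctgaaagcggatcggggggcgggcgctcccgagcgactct
Txnrd1: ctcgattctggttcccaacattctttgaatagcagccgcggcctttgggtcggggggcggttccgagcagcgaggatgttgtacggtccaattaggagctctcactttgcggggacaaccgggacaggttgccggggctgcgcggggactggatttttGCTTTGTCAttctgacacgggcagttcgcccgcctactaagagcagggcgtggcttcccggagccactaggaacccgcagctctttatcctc
The SRE letters stood in the windows of 1 of 13 matched genes of the cholesterol list, against 1.05% of all 32851 windows. The ARE letters stood in those of 6 of 18 matched genes of the NRF2 list (33.3%), against 10.2% of all windows. A listed gene was counted if any of its windows held the letters, while the share over all is per window. Genes with several windows can raise the listed shares, so the shares are not alike. The 2 stretches are not typical of the genes that differed. The same search found no SRE letters upstream of Idi1 and Msmo1. It found no ARE letters upstream of Osgin1 and Sqstm1, or in the other windows of Txnrd1. A match of letters is a description and shows no binding.

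The table gave estimated molecule counts (UMIs), and a level is given in CPM, the share of all UMIs of a cell or of a group's summed cells, for each 1000000 UMIs. The 21 cells at 15 h held 670464 UMIs (5994 to 73362 per cell, median 31037), and the 52 cells at 10 h held 979859 (1060 to 42711, median 18741). Depth thus differed in the direction of the comparison, and thinned to 5000 UMIs the median cell showed 2129 genes at 15 h and 2107 at 10 h. Rn45s, the precursor of ribosomal RNA, took more than 50% of UMIs in 2 of the 21 cells (83.4% and 88.3%, with 6767 and 5994 UMIs) and in 7 of the 52 cells (65.7% to 85.9%, with 1060 to 6246 UMIs), and in none of the 37 °C cells at these hours. Cell 4 at 15 h, with 6499 UMIs, also stood apart, with 15.9% of its UMIs in the short RNA Rn4.5s. No pair of cells held identical values. Markers of B cells, of erythroid cells and platelets, and of fibroblasts and epithelium were close to absent. Of 15 myeloid markers 12, Mpo, Elane, Lyz2 and Spi1 among them, had no UMI in either group. Fcgr1 had 9 UMIs at 15 h and 21 at 10 h, Cd14 had 1 at 15 h and Itgam 1 at 10 h. A UMI of the myeloid list was present in 7 of 21 cells at 15 h and 17 of 52 at 10 h. Most listed markers of the labelled myeloid origin were thus without RNA here, but not all. Of 28 listed T-lineage genes 13 were measured, among them Cd3e (187.2 CPM at 15 h and 190.8 CPM at 10 h) and Tcf7 (555 and 479 CPM), while Cd4, Cd8a, Cd8b1, Cd5 and Cd6 had no UMI in either group and Cd3d had 2 UMIs at 15 h and 7 at 10 h.

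Over all genes the groups were close. Ratios were read for the 7324 genes with 20 or more UMIs over both groups together and 10 CPM or more in the higher group, called measured below. Such a gene can have few or no UMIs in the lower group. Their median log2 ratio of 15 h over 10 h was -0.01. Of these genes 3596 (49.1%) stood higher at 15 h and 3728 lower, the background for the counts of list members below. At 15 h, 337 genes (4.6%) stood at least 2-fold higher and 284 (3.88%) at least 2-fold lower, so 54.3% of these differences were upward. With Rn45s and the 10 most abundant genes out of the totals the numbers were 419 and 224 (65.2% upward), centred on the median of well-counted genes 65.8% were upward, and thinned to 5000 UMIs 96 stood higher, which was 31.9% of the differences. The direction of the balance is therefore not fixed by these data. In the 37 °C cells, over the same hours, 246 of 4594 measured genes (5.35%) stood at least 2-fold higher, 2.74% stood at least 2-fold lower, and 48.8% stood higher at all. The groups at 37 °C are small, so a gene's ratio there has a wide interval.

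Genes of cholesterol synthesis stood higher at 15 h than at 10 h as a set. Of the 25 listed genes 19 were measured, all 19 stood higher at 15 h, and 13 of them by at least 2-fold (68.4%, against 4.6% of all measured genes). The median log2 ratio was 1.37, and it lay between 1.02 and 1.52 under 11 other ways of processing. In 37 °C cells 11 of the genes were measured, 8 stood higher, 4 of them by at least 2-fold, and the median was 0.39. Of all genes measured in those cells 5.35% stood at least 2-fold higher.

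Hmgcs1 encodes the synthase that makes HMG-CoA at the start of the pathway. Per cell it ranged from 0 to 557.5 CPM at 15 h (median 60.8) and from 0 to 104.6 CPM at 10 h (median 0). A UMI of it was present in 17 of 21 cells at 15 h, against 18 of 52 at 10 h, and after thinning to 5000 UMIs in 7 of 21 (33.3%, 95% interval 14.6% to 56.97%) against 5 of 47 (10.6%, 3.55% to 23.1%). These share intervals take each cell as a draw and do not compare the groups. At equal depth a minority of cells had a UMI of it at either hour, and the per-cell ranges overlapped from 0 to 104.6 CPM. Summed over cells it stood at 141.7 CPM, against 26.5 CPM, a log2 ratio of 2.40 (1.78 to 3.10).

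The isomerase Idi1 and the decarboxylase Mvd, which make the isoprene units, had log2 ratios of 1.68 (0.86 to 2.59) and 2.22 (0.82 to 4.11), the second from 17 and 5 UMIs. In thinned cells the ratio of Idi1 was 0.37, and that of Cyp51, a sterol demethylase with a ratio of 1.36 (0.65 to 2.12), was 0.27. Ratios of single genes in thinned cells, here and below, were taken with no filter on the UMIs left and carry no interval.

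Enzymes that close and trim the sterol rings also stood higher. Sqle, squalene epoxidase, ranged from 0 to 166.4 CPM per cell at 15 h (median 36.2) and from 0 to 196.1 CPM at 10 h (median 0). A UMI of it was present in 15 of 21 cells at 15 h and in 15 of 52 at 10 h, and the ranges overlapped. Its summed level was 71.6 CPM at 15 h and 20.4 CPM at 10 h, with a log2 ratio of 1.79 (1.03 to 2.64). Msmo1, which removes methyl groups from the sterol, had a ratio of 2.35 (1.44 to 3.45), and Lss, lanosterol synthase, one of 2.13 (0.92 to 3.67). The lowest ratios belonged to Ebp (0.31, -0.49 to 1.09) and to Srebf2, the gene of the SREBP factor itself (0.32, -1.00 to 1.58), whose intervals include 0, and which turned to -0.10 and -0.24 without single cells at 15 h. Stard4, a sterol carrier, had a ratio of 1.28 (0.44 to 2.2). In the thinned cells it was -1.16, a value taken with no filter on the UMIs left and without an interval.

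**Figure D1:**
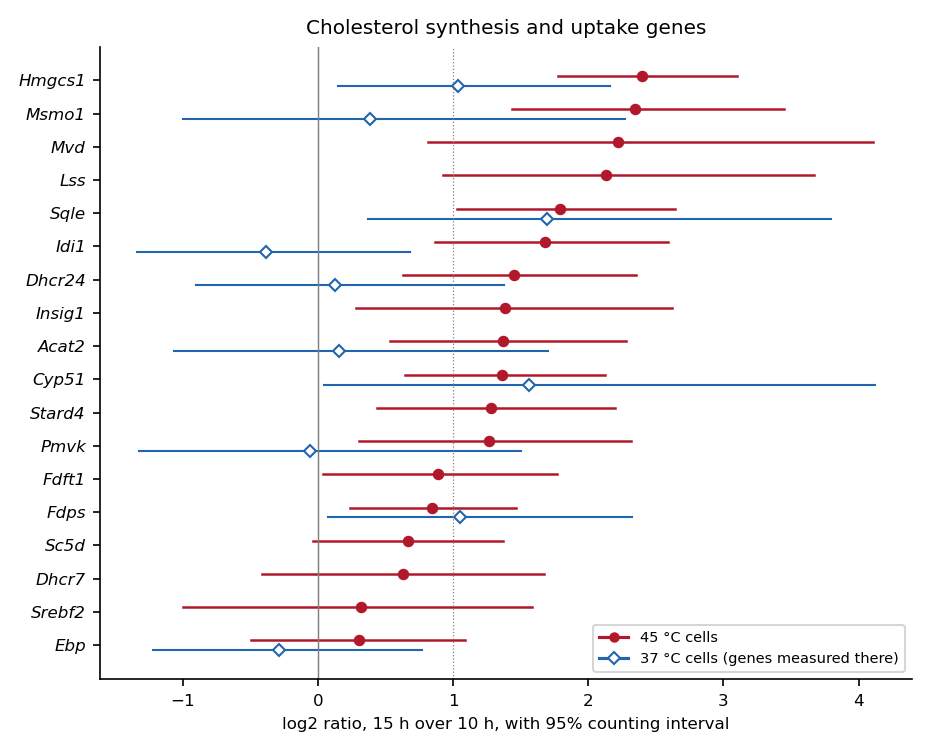
Log2 ratio of 15 h over 10 h (x axis) for 18 measured genes of cholesterol synthesis and uptake, with its 95% counting interval. Filled circles are 45 °C cells and open diamonds 37 °C cells, shown for the 10 of these genes measured there. Every circle lies above 0, and the diamonds of Sqle (1.70) and Cyp51 (1.56) lie close to their circles (1.79 and 1.36).

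Summed over the list, a cell held between 0 and 2354 CPM at 15 h (median 669) and between 0 and 1150 CPM at 10 h (median 375). Above the highest cell at 10 h lay 7 of the 21 cells at 15 h. Among cells with at least 10000 UMIs the ranges were 261 to 2354 CPM at 15 h (17 cells, median 777) and 127.6 to 697 CPM at 10 h (40 cells, median 402), and 9 of the 17 exceeded all 40. The cells at 15 h were thus spread over a wider range than those at 10 h, and some of them lay within the range of 10 h.

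Over the whole time series, the list's sum in heated cells was 1272 CPM at -1 h, 1344 CPM at 1 h, 887 CPM at 5 h, 414 CPM at 10 h and 1098 CPM at 15 h. In 37 °C cells it was 1355, 1058, 1028, 661 and 999 CPM at the same times. The sum at 10 h was the lowest of each series, and the 15 h sum of heated cells lay within the range of the unheated groups. Part of the difference between the hours was also present at 37 °C, where Hmgcs1 had a ratio of 1.03 (0.15 to 2.16), Sqle 1.70 (0.37 to 3.80) and Cyp51 1.56 (0.05 to 4.12), and whether the ratios of the heated and the control pair differ was not tested.

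Genes of the oxidant defence governed by NRF2 stood lower at 15 h. Of 20 measured genes of 24 listed, 16 stood lower, 3 of them by at least 2-fold (15%, against 3.88% of all genes). An interval wholly under 0 was held by 8 of the 20, against 801 of all 7324 genes. The median log2 ratio was -0.28, from -0.51 to -0.10 under the alternatives, and 0.17 in 37 °C cells. Osgin1, Gclc and Txnrd1 were the genes past 2-fold.

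Osgin1, an oxidative stress response gene that restrains growth, ranged from 0 to 441 CPM at 15 h (median 0) and from 0 to 1742 CPM at 10 h (median 75.8). At 15 h the cell with 441 CPM was one of fewer than 10000 UMIs, and 3 of 21 cells lay above the median at 10 h. The summed level was 20.9 CPM, against 203.1 CPM, a log2 ratio of -3.23 (-4.18 to -2.50). Osgin1 stood at 34.9, 6.9, 113.6, 203.1 and 20.9 CPM in the heated cells from -1 h to 15 h and between 0 and 34.6 CPM in 37 °C cells.

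Gclc, the catalytic subunit of the enzyme that starts glutathione synthesis, ranged from 0 to 101.2 CPM at 15 h (median 24.2) and from 0 to 877 CPM at 10 h (median 74.5). Its log2 ratio was -1.95 (-2.60 to -1.38), and thinned cells with a UMI were 1 of 21 against 22 of 47. Txnrd1, cytosolic thioredoxin reductase, stood at 114.8 CPM at 15 h and 283 CPM at 10 h (-1.29, -1.68 to -0.93), and glutathione reductase Gsr had a ratio of -0.95 (-1.59 to -0.36). Gclm, the partner subunit of Gclc, differed less (-0.37, -0.97 to 0.19), as did Nfe2l2, the gene of NRF2 (-0.25, -0.70 to 0.18), and both intervals include 0.

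Both Gclc and Txnrd1 stood higher in the 37 °C cells of either hour than in the heated cells of 15 h. Txnrd1 stood at 247 CPM in 37 °C cells at 15 h and at 309 CPM in those at 10 h. Gclc stood at 71.9 CPM and 98.1 CPM in these groups. In the heated cells Gclc was at 34.93, 34.48 and 40.02 CPM at -1, 1 and 5 h, so its 163.8 CPM at 10 h was the highest of all 10 groups.

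Sqstm1 encodes p62, an autophagy receptor that is itself a target of NRF2 and binds its inhibitor KEAP1. It ranged from 0 to 501 CPM per cell at 15 h (median 58.6) and from 0 to 1177 CPM at 10 h (median 338). Only 2 of 21 cells at 15 h lay above the median at 10 h, and after thinning 5 of 21 (23.8%, 8.22% to 47.2%) had a UMI, against 40 of 47 (85.1%, 71.7% to 93.8%). The summed level was 130.5 CPM, against 428 CPM, a log2 ratio of -1.70 (-2.05 to -1.37). In 37 °C cells the ratio was of the other sign, 1.81 (0.33 to 4.36), from levels of 69.6 CPM at 15 h and 17.3 CPM at 10 h. The level at 10 h lies at the floor of 3 UMIs over that group's 6 cells, so this sign rests on few UMIs.

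Gabarapl1, a member of the ATG8 family that Sqstm1 docks to on the autophagosome, was lower in the same way, with 79.05 CPM at 15 h and 224 CPM at 10 h (-1.50, -1.97 to -1.07). Over the whole list of autophagy and the lysosome the difference was smaller. Of 22 measured genes, Sqstm1 and Gabarapl1 included, 15 stood lower and 3 by at least 2-fold (13.6%, against 3.88% of all genes), and the median was -0.20 (-0.58 to -0.11 under the alternatives), against 0.12 in 37 °C cells. Summed over the list, 19 of 21 cells at 15 h lay below the median cell at 10 h. The list's sum over all cells was 1699 CPM at 15 h and 2352 CPM at 10 h. Sqstm1 and Gabarapl1 make up much of that difference, so the count of cells does not describe the list as a whole.

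Of 9 measured genes of iron handling 4 stood higher and 5 lower at 15 h, with a median of -0.03 that turned sign under 4 of 12 alternatives. Fth1, the ferritin heavy chain, stood at 575 CPM at 15 h and 1027 CPM at 10 h (-0.83, -1.01 to -0.67). Ftl1, the light chain, had a ratio of -0.64 (-0.73 to -0.54), but 76% of its UMIs sat in values that were not whole, and with whole values only its ratio was 0.40. Tfrc, the transferrin receptor that brings iron in, stood at 254 CPM at 15 h and 139.8 CPM at 10 h (0.86, 0.53 to 1.19). Slc25a37, which brings iron into mitochondria, had a ratio of -1.14 (-2.198 to -0.26), and Slc11a2, another iron transporter, one of 0.14 (-0.94 to 1.17).

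**Figure D2:**
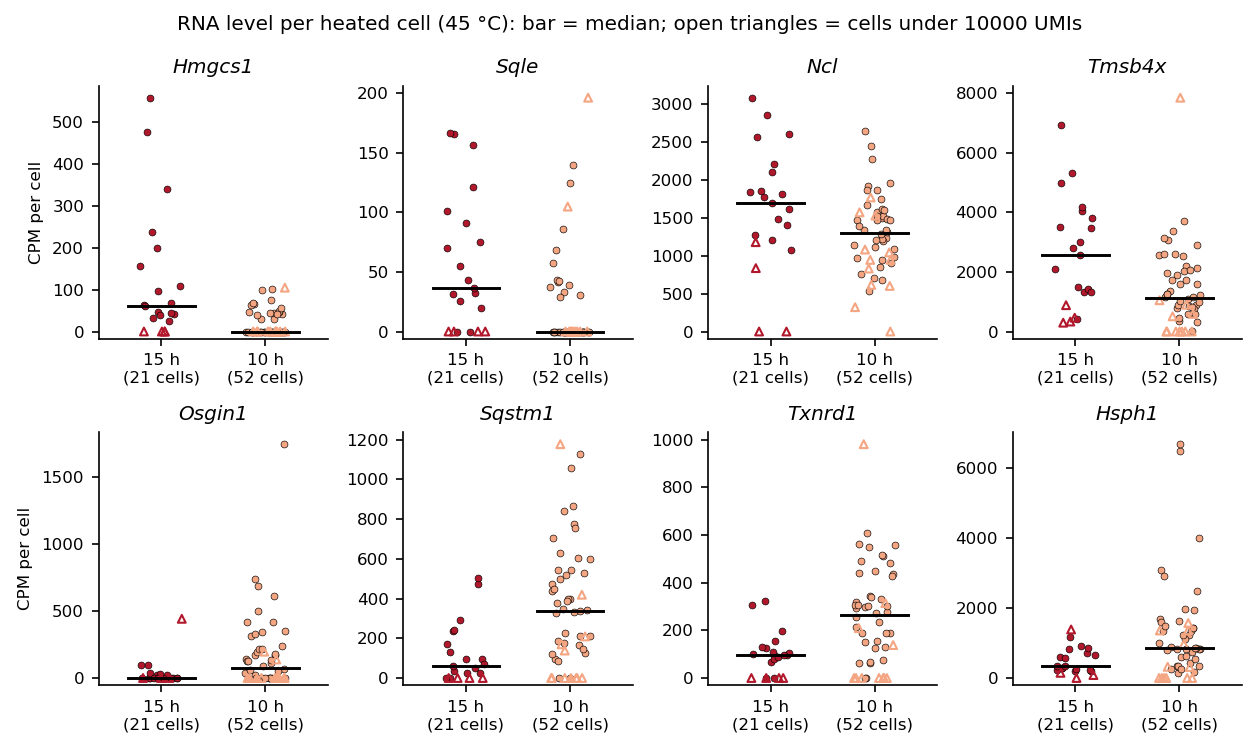
Level of 8 genes in each heated cell, in CPM (y axis), for the 21 cells at 15 h and the 52 cells at 10 h. Filled circles are cells with at least 10000 UMIs, open triangles shallower cells, and bars the group medians: these lie higher at 15 h for Hmgcs1, Sqle, Ncl and Tmsb4x and lower for Osgin1, Sqstm1, Txnrd1 and Hsph1.

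Chaperone genes differed one by one, with a small median difference over the list. Of 25 measured genes of 31 listed, 17 stood lower at 15 h and 8 higher, none by 2-fold upward and 3 by 2-fold downward (12%), against 4.6% and 3.88% of all genes. Their median was -0.12 on the summed counts and -0.13 without cells under 10000 UMIs. It was 0.02 on the mean of per-cell CPM and 0.10 in thinned cells, so its sign is not settled. In 37 °C cells it was 0.05. Summed over the list, 12 of 21 cells at 15 h lay below the median cell at 10 h. Among cells with at least 10000 UMIs the medians were 17045 CPM at 15 h and 19769 CPM at 10 h, and 4 of 17 at 15 h exceeded the latter.

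Hsph1, a nucleotide exchange factor of the HSP70 machine, was the clearest of them. It ranged from 0 to 1385 CPM per cell at 15 h (median 342) and from 0 to 6673 CPM at 10 h (median 856), and 3 of 21 cells lay above the median at 10 h. The summed level was 485 CPM, against 1409 CPM, a log2 ratio of -1.54 (-1.72 to -1.36). It had been 156.3, 266 and 1838 CPM at -1, 1 and 5 h, and 272 and 300 CPM in the 37 °C cells at 15 h and 10 h, so at 15 h it stood below its levels at 5 h and 10 h and above those of all unheated groups, the highest of which was 365 CPM.

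Hspa1a, an inducible HSP70, had 1 UMI in 1 of 21 cells at 15 h and 29 UMIs in 3 of 52 cells at 10 h. One of those cells reached 877 CPM, and the log2 ratio (-3.75, -9.66 to -1.72) was -1.99 without it. Its near-identical copy Hspa1b was not measured, and reads of the pair cannot be told apart with certainty.

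The most abundant chaperones differed less. Hsp90ab1, the constitutive HSP90, stood at 7645 CPM at 15 h and 7537 CPM at 10 h (0.02, -0.03 to 0.07). Hsp90aa1, the inducible one, stood at 3769 CPM and 4218 CPM (-0.16, -0.23 to -0.09), but turned to 0.42 as a mean of per-cell values and to 0.16 in thinned cells. Cell 4 at 15 h held 25363 CPM of it, against 9828 CPM in the highest cell at 10 h. Both HSP90 genes stood above all unheated groups at 15 h, which reached 5564 CPM of Hsp90ab1 and 1694 CPM of Hsp90aa1. Hspa8, the constitutive HSP70, stood higher at 15 h (3120 CPM, against 2702 CPM; 0.21, 0.12 to 0.29).

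Bag3, a co-chaperone of HSP70 in selective autophagy, gave opposite signs by the weight put on cells. Its ratio of sums was -0.96 (-1.70 to -0.30), the mean of per-cell CPM gave 0.70 and thinned cells 0.35, and without cell 4 at 15 h, which held 1846 CPM, the ratio of sums was -1.86. Hsf2, a heat shock factor, stood at 14.9 CPM and 36.2 CPM (-1.25, -2.48 to -0.26).

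In mitochondria, the chaperonin pair Hspd1 and Hspe1 stood lower at 15 h. Hspd1 was at 1861 CPM at 15 h and 2523 CPM at 10 h (-0.44, -0.54 to -0.34), and Hspe1 at 1674 CPM and 2376 CPM (-0.51, -0.61 to -0.40). Above the median cell at 10 h lay 5 of 21 cells at 15 h for either gene. Htra2, a protease of the space between the mitochondrial membranes, stood higher, at 110 CPM against 41.8 CPM (1.39, 0.83 to 1.99). The 12 mitochondrial genes had a median of 0.08, which turned to -0.12 in thinned cells and to -0.07 among genes with at least 200 UMIs, and the endoplasmic reticulum's 22 chaperone genes one of -0.02 (-0.24 to 0.08 under the alternatives), with 11 on each side.

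**Figure D3:**
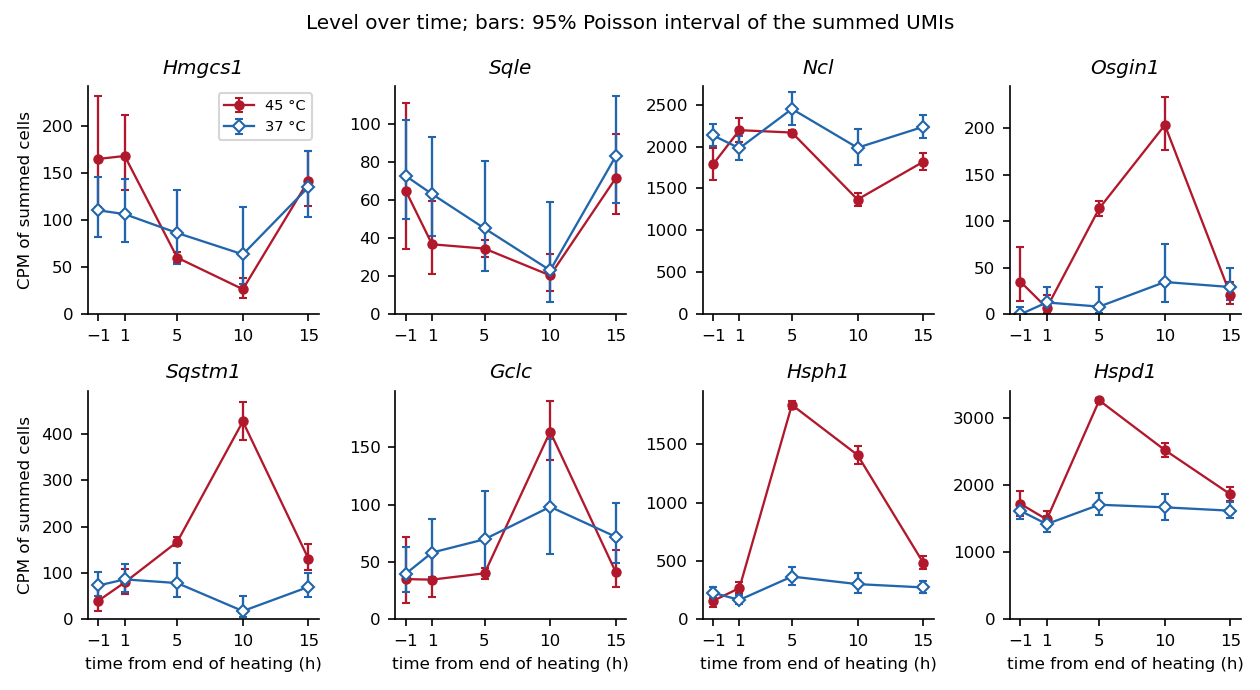
Level of 8 genes in the summed cells of each group, in CPM (y axis), over the time from the end of heating (x axis), with 95% Poisson intervals. In 45 °C cells (filled circles) Osgin1, Sqstm1 and Gclc are highest at 10 h, Hsph1 and Hspd1 at 5 h, and Hmgcs1, Sqle and Ncl lowest at 10 h; open diamonds are 37 °C cells.

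Genes of the ATF4 programme stood lower at 15 h with few exceptions. Of 25 measured genes of 31 listed, 23 stood lower, 16 with an interval wholly under 0, against 801 of all 7324 genes. By at least 2-fold 2 stood lower (8%, against 3.88% of all genes). The median was -0.59, from -0.79 to -0.24 under the alternatives, and -0.12 in 37 °C cells. Summed over the list, 18 of 21 cells at 15 h lay below the median cell at 10 h.

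Trib3, a pseudokinase induced by ATF4 that feeds back on it, was without a UMI at 15 h, in 21 cells, and had 32 UMIs in 12 of 52 cells at 10 h. Against a floor of 3 UMIs over the group (4.47 CPM), the level at 15 h was at least 7.30-fold lower than the 32.7 CPM at 10 h. Phgdh, the first enzyme of serine synthesis, stood at 300.5 CPM and 453 CPM (-0.59, -0.84 to -0.35), and the glycyl-tRNA synthetase Gars at 395 CPM and 529 CPM (-0.42, -0.64 to -0.20). Atf4 itself had a ratio of -0.67 (-0.94 to -0.42) and Ddit3, which encodes CHOP, one of -1.20 (-2.60 to -0.09), both picked out after their values were seen.

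The sum of the list in heated cells was 6276 CPM at -1 h, 6518 CPM at 1 h, 5481 CPM at 5 h, 4348 CPM at 10 h and 3054 CPM at 15 h. In 37 °C cells it was 6218, 7402, 4662, 4655 and 4147 CPM. Both series were lowest at 15 h, and the heated cells at 15 h were the lowest of all 10 groups. Eif4ebp1, an inhibitor of cap-dependent translation, also stood lower at 15 h, at 131.2 CPM against 278 CPM (-1.08, -1.44 to -0.73).

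Ribosome genes split by kind. All 81 cytosolic ribosomal protein genes stood lower at 15 h, none by 2-fold, with a median of -0.25 (-0.39 to -0.16 under the alternatives) and of -0.04 in 37 °C cells. Their sum was 192610 CPM at 15 h and 230600 CPM at 10 h, and 20 of 21 cells at 15 h lay below the median cell at 10 h. Rn45s, which shares the same total, was 15.5% of UMIs at 15 h and 10.6% at 10 h, and with Rn45s and the top genes out of the totals the median was -0.18.

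The genes that assemble ribosomes went the other way. Of 36 measured, 28 stood higher at 15 h (against 49.1% of all genes). An interval wholly above 0 was held by 14 of the 36, against 717 of all 7324 genes. The median was 0.28 (0.20 to 0.41 under the alternatives) and 0.05 in 37 °C cells. Ncl, nucleolin, ranged from 0 to 3078 CPM per cell at 15 h (median 1692) and from 0 to 2646 CPM at 10 h (median 1298), with a ratio of 0.41 (0.30 to 0.52). Wdr12, of the complex that matures the large subunit's RNA, stood at 149.2 CPM and 57.2 CPM (1.38, 0.90 to 1.88), and Utp4, of the small subunit processome, was the exception at the low end (-1.09, -2.03 to -0.29). The list's sum at 10 h in heated cells, 7315 CPM, was the lowest of all 10 groups, and at 15 h it was 8624 CPM.

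The noncoding host genes of small nucleolar RNAs, whose spliced RNAs are held down by decay during translation, stood lower in 12 of 15 cases. Their median was -0.36 (-0.58 to -0.27 under the alternatives), against 0.59 in 37 °C cells, where 12 of 13 stood higher. Gas5 stood at 613 CPM at 15 h and 785 CPM at 10 h (-0.36, -0.53 to -0.18). Kcnq1ot1, a nuclear noncoding RNA that silences an imprinted cluster, stood higher at 195.4 CPM, against 67.9 CPM (1.53, 1.1 to 1.99). It lies antisense to Kcnq1, and the use of strand in counting is not given in the sources used here.

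**Figure D4:**
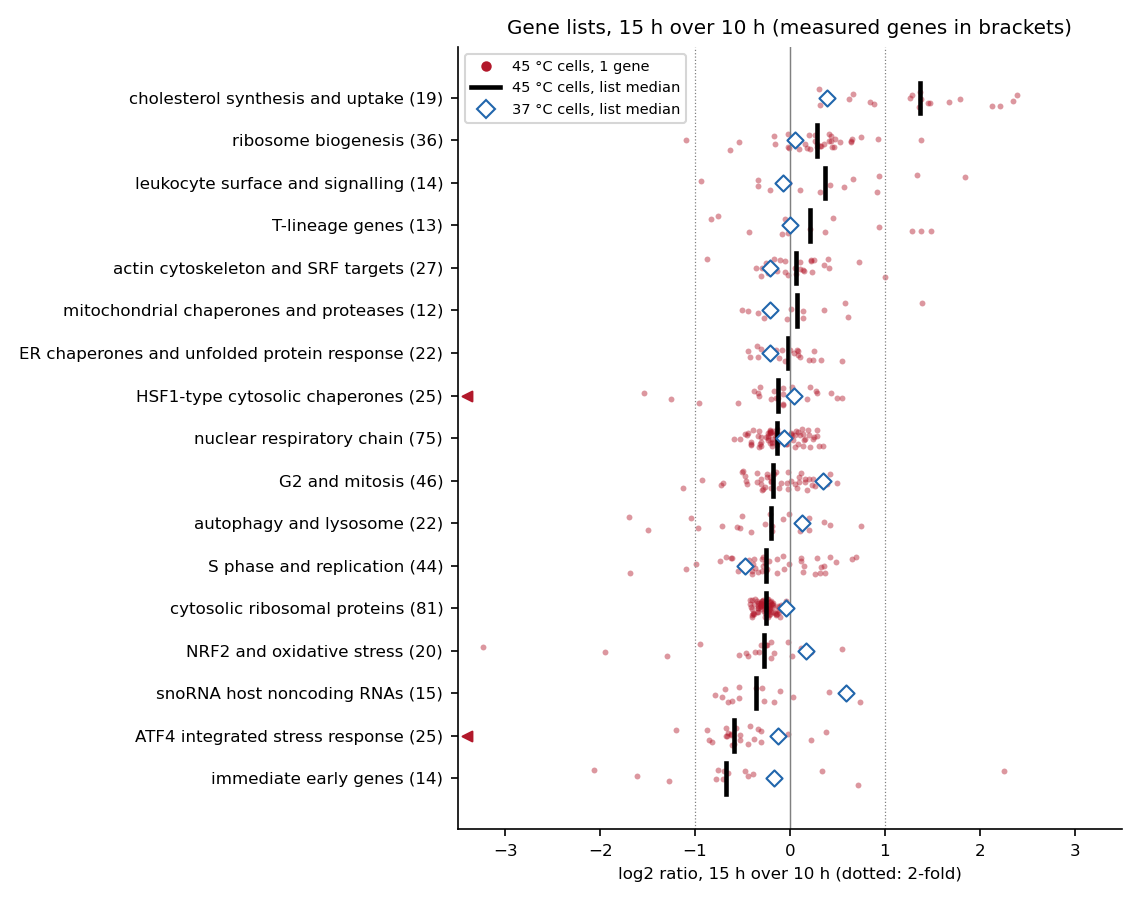
Log2 ratio of 15 h over 10 h (x axis) for the measured genes of 17 lists in 45 °C cells, 1 dot a gene, with the list's median as a bar; open diamonds are the list's median in 37 °C cells. Of the lists shown, that of cholesterol lies furthest right, with a median of 1.37, and ATF4 targets and immediate early genes lie furthest left. The interferon response list, not drawn, had a median of -0.73 over 7 measured genes, and of -0.06 in thinned cells. Arrowheads stand for Hspa1a and Trib3, which lie beyond the axis.

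Cell cycle lists had small median differences. The 46 measured genes of mitosis had a median of -0.18, which was 0.00 on the mean of per-cell CPM, and in 37 °C cells one of 0.35. The 44 of S phase had one of -0.25, against -0.48 in 37 °C cells, and of 0.21 when cells with over 10% Rn45s and Rn45s itself in the totals were both left out, which kept 7 cells at 15 h and 32 at 10 h. Of the 44 genes 30 stood lower, 11 with an interval wholly under 0, against 801 of all 7324 genes. By at least 2-fold 2 stood lower (4.55%, against 3.88% of all genes). These were Ccne2, a cyclin of S phase entry (-1.68, -3.33 to -0.49), and Cdt1, which licenses replication origins (-1.09, -1.46 to -0.75). Cdt1 was picked out after its values were seen. Cks2, a partner of cyclin-dependent kinases, was the one mitosis gene past 2-fold, at 162.6 CPM at 15 h and 356 CPM at 10 h (-1.13, -1.46 to -0.82).

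Immediate early genes, which answer growth signals within minutes, mostly stood lower, but with Myc on the other side. Of 14 measured, 11 stood lower, with a median of -0.68, which was 0.34 among genes with at least 200 UMIs. Myc, a driver of growth and ribosome building, had a UMI in 9 of 21 cells at 15 h and in 6 of 52 at 10 h, at 55.2 CPM against 11.2 CPM (2.25, 1.30 to 3.42), whereas in 37 °C cells its ratio was -0.59 (-1.91 to 0.91). Klf6 stood at 58.2 CPM and 141.9 CPM (-1.27, -1.84 to -0.76). The ratio of Nr4a2 (-2.06, -4.18 to -0.69) was -0.55 without 1 cell at 10 h.

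Tmsb4x, which encodes the thymosin that binds actin monomers, ranged from 296 to 6914 CPM per cell at 15 h (median 2565) and from 0 to 7842 CPM at 10 h (median 1115). Above the median at 10 h lay 16 of 21 cells. The summed levels were 3127 CPM and 1557 CPM (1.01, 0.91 to 1.1), while in 37 °C cells the ratio was -0.58 (-0.69 to -0.47), from 4148 CPM at 15 h and 6216 CPM at 10 h. The unheated groups lay between 2876 and 6216 CPM, so the heated cells at 15 h were within their range and those at 10 h below it. No other of the 27 measured actin genes differed by 2-fold.

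Among leukocyte surface genes, Ptprc, which encodes the phosphatase CD45, stood at 464 CPM at 15 h and 291 CPM at 10 h (0.67, 0.43 to 0.91). Fcgr3, an Fc receptor, was at 58.9 CPM and 16.3 CPM (1.84, 1.00 to 2.81), and Cxcr4, a chemokine receptor, at 28.3 CPM and 55.1 CPM (-0.94, -1.80 to -0.18). Of the 14 measured, 9 stood higher, against 49.1% of all genes, with a median of 0.37 that was -0.03 in thinned cells. Ms4a4b, a T-lineage gene, was at 86.5 CPM and 30.6 CPM (1.49, 0.84 to 2.19).

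Single genes were also taken by rule from all measured genes, by the interval bound nearest 0. Among the 349 candidates higher at 15 h, beside Hmgcs1, Msmo1 and Kcnq1ot1, were Psen2, a catalytic subunit of gamma-secretase (74.6 CPM against 10.2 CPM; 2.81, 1.87 to 4.01), Ccr2, a chemokine receptor (77.6 CPM against 15.3 CPM; 2.31, 1.49 to 3.28), and Arhgap30, a GTPase-activating protein (264 CPM against 89.8 CPM; 1.55, 1.18 to 1.94). Of Arhgap30 19 of 21 cells at 15 h had more than the median cell at 10 h. Nav2, St6galnac4, Peak1 and Epsti1 had ratios of 2.46, 2.33, 2.16 and 1.68. Ncoa7 had one of 2.52 (1.83 to 3.33), which was 1.62 without cell 11 at 15 h, and Rn4.5s one of 1.95, which was 0.29 without cell 4.

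Among the 295 candidates lower at 15 h, beside Osgin1, Gclc, Sqstm1, Hsph1, Gabarapl1 and Txnrd1, were Slc30a1, a zinc exporter (52.2 CPM against 166.3 CPM; -1.66, -2.24 to -1.14), and Tsc22d3, a glucocorticoid-induced regulator (29.8 CPM against 103.1 CPM; -1.76, -2.56 to -1.09). Ypel3 had a ratio of -2.67 (-3.92 to -1.75), and the cap methyltransferase Rnmt one of -1.58 (-2.38 to -0.89). Mrpl9, a mitochondrial ribosomal protein, had one of -1.43 (-2.004 to -0.914), which was -1.20 without 1 cell at 10 h that held 3730 CPM, and Tmem209 one of -1.60.

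The genes that had set heated cells apart earlier were followed at the later hours. At 5 h, a set of genes with at least 50 CPM in the higher group stood at least 2-fold higher at 45 °C than at 37 °C. At 15 h over 10 h their median log2 ratio was -0.22 (-0.43 to -0.14 under the alternatives). At 15 h 72 stood lower and 30 higher, while 49.1% of all genes stood higher. By at least 2-fold, 12 stood lower (11.8%, against 3.88% of all genes) and 2 higher (1.96%, against 4.6%). The 268 genes that had been at least 2-fold lower at 5 h had a median of 0.18 (0.12 to 0.35), with 96 lower at 15 h and the rest higher. Past 2-fold were 22 of them upward (8.21%, against 4.6%) and 5 downward (1.87%, against 3.88%). In 37 °C cells the medians of the sets were 0.01 and -0.06. The set that had been higher at 5 h thus stood mostly lower at 15 h than at 10 h, and the set that had been lower stood mostly higher. At 5 h itself 6.22% of 7594 measured genes stood at least 2-fold higher and 15.2% at least 2-fold lower.

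**Figure D5:**
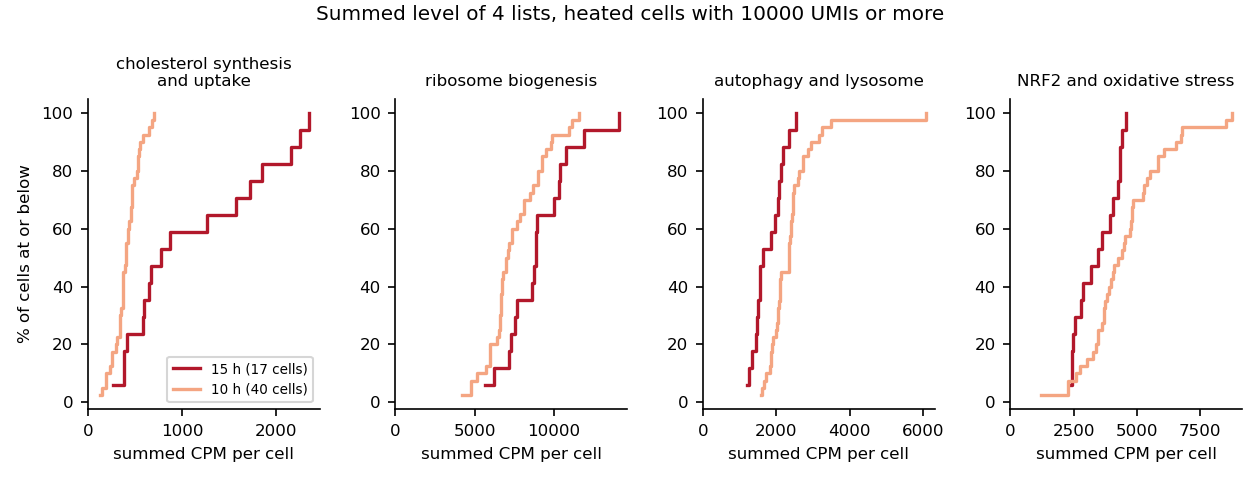
Share of heated cells with at least 10000 UMIs (y axis, in %) whose summed level of a list is at or below the value on the x axis, in CPM, for 17 cells at 15 h and 40 at 10 h. The cholesterol curve of 15 h runs out to 2354 CPM, past the 697 CPM at which that of 10 h ends; for autophagy and NRF2 genes the curve of 15 h lies left of that of 10 h over most of its course.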

How the data were processed

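Single C1498 cells were sequenced with molecular barcodes from polyA RNA, per the labels. The authors deposited 1 table of estimated counts of molecules (UMIs) for 24781 genes, and STAR and mm10 are named in the submitters' processing notes, with no version and no counting tool given in the sources used here. Of the non-zero values 5.3% were not whole, and they held 25.9% of UMIs. Cells were summed per group, sums were rounded for intervals, and CPM were taken over all genes. The log2 ratio had 0.5 UMI added to each sum, and 95% intervals for it came from Clopper-Pearson bounds on the 15 h share of a gene's UMIs. Poisson and share intervals are exact, the latter with each cell as a draw. The calculation was tested on simulated sums with Poisson error only. They held no spread between cells, so that test says nothing of such spread. Cells are not replicates and no label names a culture, so no test was made. Genes were named if they had at least 50 CPM and a UMI in at least 50% of cells of the higher group, a difference of at least 1.5-fold and 1 direction with any cell left out. Up to 12 a direction were kept, those whose interval lay farthest from 0, with unnamed gene models and ribosomal protein pseudogenes left out. From each list came its extremes and most abundant members; the SREBP, NRF2 and chaperone members, Atf4, Ddit3, Slc11a2 and Cd3e beyond these were chosen after their values were seen. Members and lists were chosen with earlier results of these data known. The other settings were low-count filters, totals, centring, cell weights, thinning, whole values, the UMIs added and the omission of cells. Spike-in RNAs were not analysed here. The values of 1 cholesterol gene are not reported here. Python 3.11.15, numpy 2.4.6, pandas 2.3.3, scipy 1.17.1 and matplotlib 3.10.9 were used.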

Additional observations from a re-analysis of the deposited data

How the results depend on the processing

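Without a filter on low sums 1577 genes stood at least 2-fold higher and 1422 lower, with at least 200 UMIs 9 and 9, and thinned to 5000 UMIs 96 stood higher, where fewer genes could be measured. The median of immediate early genes was 0.34 with at least 200 UMIs. That of clustered histones was -0.04 (5 genes), -0.59 without a filter and 0.97 with both cells over 10% Rn45s and Rn45s in the totals left out. That of ribosomal proteins was -0.39 in thinned cells, and that of T-lineage genes, 0.21, was -0.020 without a filter and -0.22 in thinned cells. Thinning turned Stard4 to -1.16, Tcf7 to -0.42, Bag3 to 0.35 and Hsp90aa1 to 0.16. With their direction kept, it gave smaller ratios for Psen2 (1.81), Msmo1 (1.45), Wdr12 (0.73), Tfrc (0.53), Ptprc (0.30), Klf6 (-0.53) and Gsr (-0.63), and larger ones for Gclc (-3.27), Hsf2 (-3.59), Utp4 (-2.11) and Mrpl9 (-2.17). These thinned ratios were taken with no filter on the UMIs left and carry no interval. That of Hsf2, with 10 UMIs at 15 h and 36 at 10 h before thinning, rests on few. The mean of per-cell CPM turned Bag3 to 0.70 and Hsp90aa1 to 0.42. With whole values only Ftl1 stood at 0.40 and Rn45s at -0.64. The causes were not tested. Omitting cells with over 50% Rn45s or under 10000 UMIs was chosen after seeing the data. No paired analysis was possible because cell numbers only name cells and the results come from no test.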

Other observations

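Among apoptosis regulators, 10 of 16 measured genes stood higher at 15 h than at 10 h, against 49.1% of all measured genes. Their median log2 ratio was 0.23 (0.05 to 0.48 under the alternatives), and -0.08 in 37 °C cells. The nuclear respiratory chain had 51 of 75 genes lower at 15 h and none at least 2-fold apart, with a median of -0.14, which was 0.06 with both cells over 10% Rn45s and Rn45s in the totals left out and 0.02 with whole values only. The chaperonin and prefoldin subunits, which fold actin and tubulin, had a median of 0.07, with all 14 within 2-fold.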
